A study of Camellia japonica and Camellia azalea with 81 samples.

Results

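A set of 60 genes was examined whose leaf transcripts ran in opposite seasons in 2 camellias, higher in winter than in summer in Camellia japonica and higher in summer than in winter in Camellia azalea. The members were taken from the 41952 gene IDs that both expression tables list. For each ID the mean of log2(TPM + 1) over winter leaves (Dec, Jan and Feb) minus that over summer leaves (Jun, Jul and Aug) was taken within each species. TPM is a transcript's share of its library, adjusted for transcript length and scaled to a fixed total. An ID was eligible with a mean of at least 5 TPM in C. japonica winter leaves and in C. azalea summer leaves, which 13658 IDs met. The score was the smaller of the winter excess in C. japonica and the summer excess in C. azalea, and the members are the 60 IDs selected on the highest score, that is, on measured winter and summer levels. Both excesses were above 0 in 1713 eligible IDs.

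RNA was sequenced from young leaves of C. japonica and of C. azalea, each sampled in 12 months with 3 libraries a month, and from C. japonica flower buds in 3 groups, FB-1 to FB-3, of 3 libraries. This gives 36 leaf libraries per species and 9 bud libraries, 81 in all. The labels give no genotype, treatment or plant age, and what stage each bud label stands for was not stated there either. Whether replicate libraries came from different plants is likewise unstated, so p-values reflect only how much these samples scatter, and that scatter may be technical.

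Camellias are evergreen shrubs of the tea family. C. japonica blooms in winter and spring, whereas C. azalea is known for blooming mainly in summer, which makes the pair a natural contrast for the timing of flowering. In plants generally, leaves read day length and temperature, and the mobile flowering signal florigen, an FT protein, is made in leaf veins and acts at the shoot tip, while chilling and heat also reset many leaf genes each season. The files give IDs without gene names, and no annotation was used here, so no role can be stated for a member. Lists of flowering, clock, cold, heat, floral organ and leaf genes matched 0 IDs and were not tested. Sequences of the members were not used here.

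Because TPM keep no read depth, the depth behind each value is unknown, and because each species has its own table, levels were never compared across species. In whole leaves and buds, fewer cells of a type and less RNA per cell cannot be told apart. Over all expressed IDs, a number of libraries were not closest to libraries of their own label, and some that bear on the members are named here. The library labelled Feb leaf 1 of C. japonica correlated best with FB-1 2 (r = 0.904, while its mean r with Feb leaves was 0.663), and the choice of members leaves it out, so C. japonica winter holds 8 libraries. Likewise, FB-1 1 was closest to Dec leaf 2 (r = 0.975, own label 0.645), and FB-1 2 to Feb leaf 1 (own label 0.747). Whether the labels of Feb leaf 1 and FB-1 1 were exchanged was not tested, and each bud value below counts FB-1 1 as a bud unless stated. Jan leaf 3 of C. japonica was closest to Aug leaf 2 (r = 0.941, own label 0.864), and Jan 1 of C. azalea was closest to Apr 1 (r = 0.948, own label 0.911). Oct leaf 1 of C. japonica, an autumn library, was closest to Mar leaf 2 of spring (r = 0.933, own label 0.901). The closest library carried the same label for 2 of 9 winter, 2 of 9 spring, 2 of 9 summer and 0 of 9 autumn leaf libraries of C. japonica, and for 6, 7, 8 and 9 of 9 in C. azalea in the same order of seasons.

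The values that chose the members are given as a description, without a test. Over the members, winter minus summer in C. japonica had a median of 1.21 on the log2(TPM + 1) scale and lay between 0.85 and 3.95. In C. azalea the same difference had a median of -1.36 and lay between -3.12 and -0.87. Just inside the limit, EVM0007239 had a difference of 0.85 in C. japonica and -1.50 in C. azalea. Just outside it, EVM0041382 had 0.85 and -1.39, so no gap in the values marks the limit. The members spanned a wide range of levels above the minimum of 5 TPM set by the choice. Winter means in C. japonica ran from 5.15 to 753 TPM with a median of 23.8 TPM, and 7 members reached 100 TPM while 15 stayed under 10 TPM. Summer means in C. azalea ran from 5.23 to 1328 TPM with a median of 21.03 TPM, and 8 members reached 100 TPM while 13 stayed under 10 TPM.

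The choice of members largely fixes the order of the seasons' medians, and single libraries did not all follow it. In all 60 members the median of the winter libraries was above that of the summer libraries in C. japonica, and the median of the winter libraries was below that of the summer libraries in C. azalea. However, 0 of 60 members had each of the 8 winter libraries above each of the 9 summer libraries in C. japonica, a pattern found in 1.96% of all expressed IDs. Without Jan leaf 3 there were 3 such members (6.53% of all IDs). In C. azalea 0 of 60 had each summer library above each winter library (0.182% of all IDs), and 1 did without Jan 1 (0.529%). The library medians of the 60 members show which samples overlapped. They had a lowest, middle and highest value of 5.91, 21.4 and 29.6 TPM in C. japonica winter leaves, against 3.29, 5.37 and 16.4 TPM in its summer leaves. The lowest winter value was that of Jan leaf 3, whereas the other Jan libraries stood at 21.8 and 26.9 TPM. Feb leaf 1, left out of the choice, stood at 3.40 TPM. In C. azalea the same 3 values were 1.15, 5.04 and 14.4 TPM in winter leaves, against 4.02, 20.4 and 32.4 TPM in summer leaves. The highest winter value was that of Jan 1, whereas the other Jan libraries stood at 1.15 and 2.02 TPM. Jan leaf 3 and Jan 1 were thus the extremes of their winters for the members, and over all IDs each was closest to a library of another season. Other libraries also lay inside the range of the opposite season, among them June libraries of C. japonica, up to 16.4 TPM, and August libraries of C. azalea, down to 4.02 TPM.

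**Figure D1:**
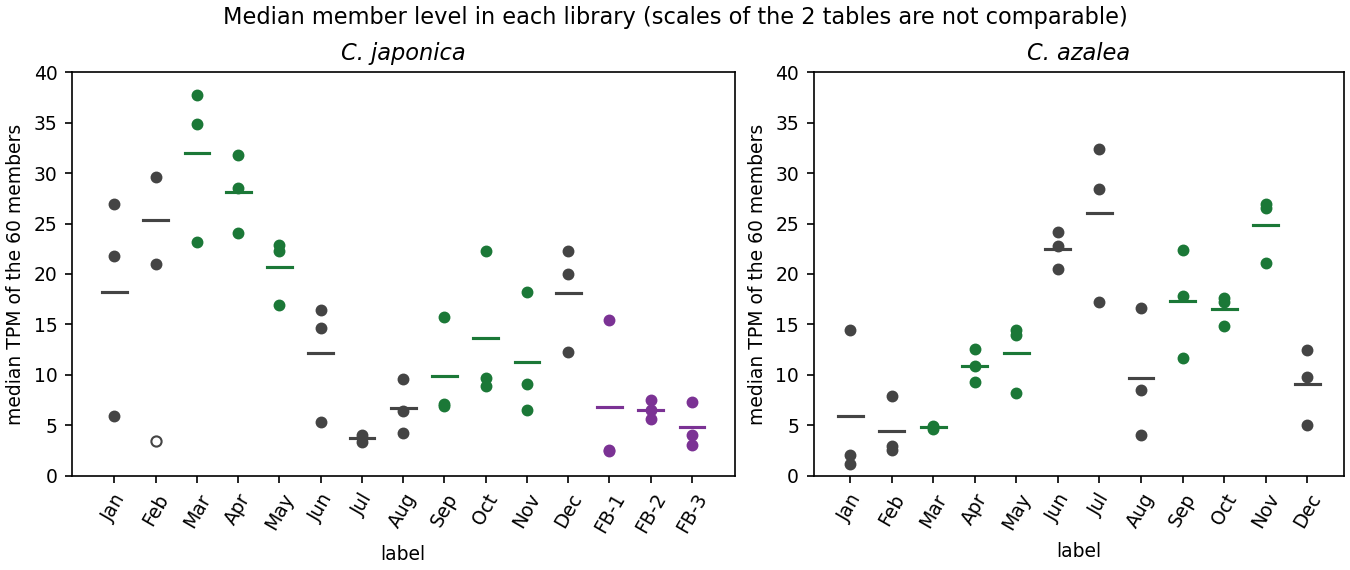
Median TPM of the 60 members in each library by month or bud label (points) and the mean of each label (bars), with months used to choose the members in grey, other months in green and buds in purple; the open circle is the library labelled Feb leaf 1, left out of the choice. Leaf library medians of C. japonica were highest in March and lowest in July, with some bud libraries lower still. Library medians of C. azalea were high in June, July and November and low from January to March.

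Month by month, the label of winter and summer genes described the members only loosely. Each member's month means were centred on its own 12-month mean. In C. japonica the median centred value was 0.43 in Dec, 0.35 in Jan and 0.76 in Feb, and it went on to 0.92 in Mar and 0.76 in Apr before falling back to 0.27 in May. It was -0.16 in Jun, -1.45 in Jul and -1.02 in Aug, then -0.48 in Sep, -0.26 in Oct and -0.34 in Nov. In Jul and in Aug 0 of 60 members stood above their own yearly mean, whereas 58 did in Feb, 53 in Mar and 57 in Apr. The shared feature in C. japonica was a late winter and spring maximum with a deep July and August minimum. In both species the winter and summer months chose the members, so their levels follow in part from the choice. Only the spring and autumn months lie outside it. The highest month was in spring for 39 members and in winter for 21, with Mar the commonest (19 members) and Feb next (14). The lowest month was in summer for 52 members, and it was Jul for 38. Over all IDs the monthly medians of C. japonica stayed between -0.18 and 0.19.

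The C. azalea profile had 2 high periods. The median centred value was -1.16 in Jan, -1.28 in Feb and -1.27 in Mar, and 2, 3 and 5 members stood above their own yearly mean in those months. It was -0.20 in Apr and -0.18 in May, then 0.93 in Jun and 1.20 in Jul. August broke the summer block, with a median of -0.48 and only 17 members above their yearly mean. Values were high again in Sep at 0.58, Oct at 0.69 and Nov at 1.295, and fell away in Dec at -0.30. The highest month was Nov for 21 members and Jul for 20, so 31 members had their maximum in summer and 25 in autumn. Over all IDs the monthly medians of C. azalea ran from -0.31 in Dec to 0.36 in Jan. Members peaking in summer and those peaking in autumn had nearly the same July level. The 31 summer-peaking members had medians of 1.28 in Jul and 0.93 in Nov, and the 25 autumn-peaking members had 1.18 in Jul and 1.77 in Nov. Since the groups were formed by highest month, the order of these levels follows in part from the split. A lower August is likewise fixed for members peaking in Jul. The August dip below July was seen in 27 of the 31 and in 24 of the 25. December differed more, at -0.54 in the summer-peaking and 0.44 in the autumn-peaking members.

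**Figure D2:**
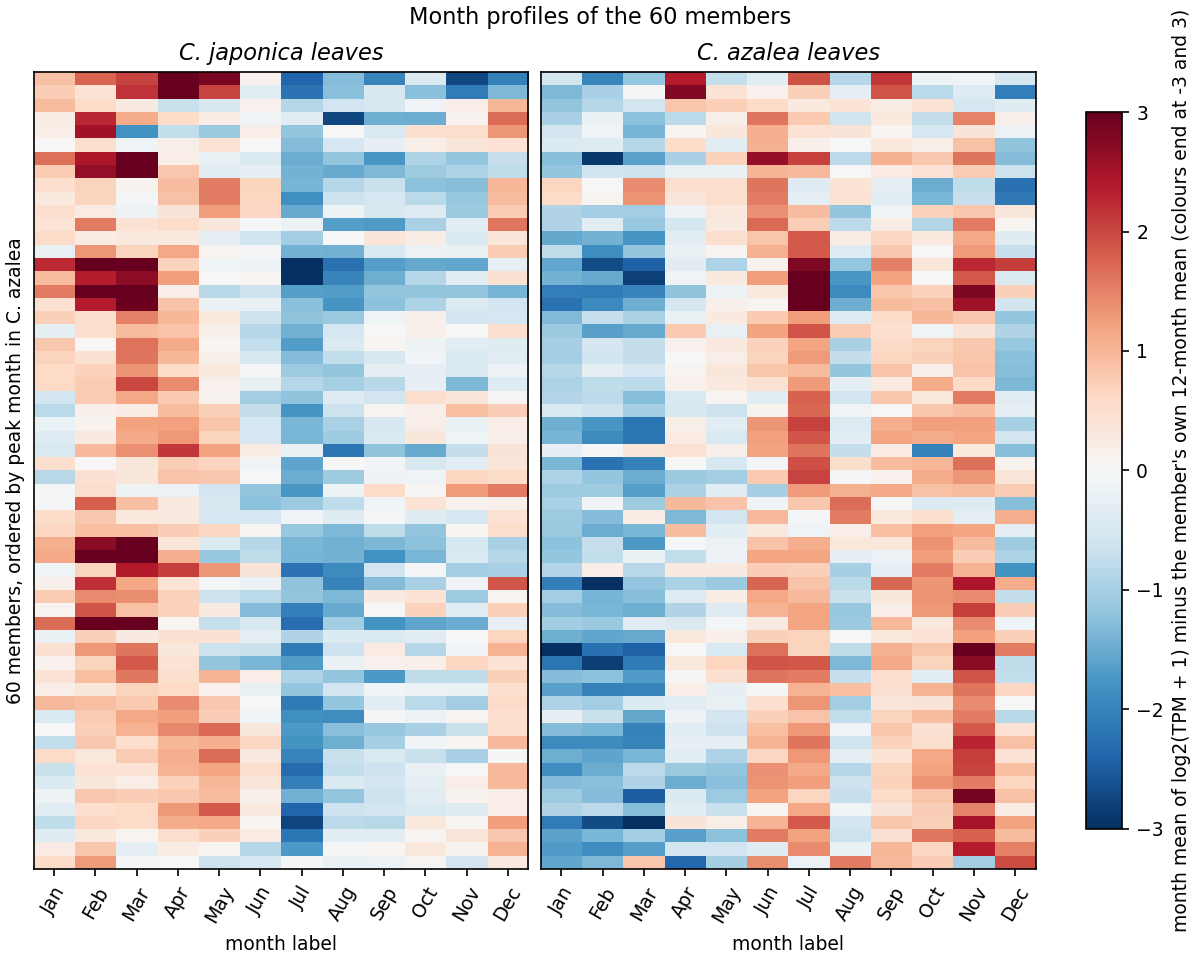
Month means of log2(TPM + 1) of the 60 members (rows), each minus the member's own 12-month mean, in C. japonica leaves (left) and C. azalea leaves (right), with rows ordered by peak month in C. azalea. Red columns from February to April on the left face blue columns from January to March on the right, July is blue in C. japonica and mostly red in C. azalea, and August is pale or blue in most members of C. azalea.

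Crossing the peak seasons, 21 members combined a C. japonica spring peak with a C. azalea summer peak, 16 a spring with an autumn peak, 10 a winter with a summer peak, and 9 a winter with an autumn peak. Of the others, 2 peaked in spring in both species, 1 in winter in both, and 1 in C. japonica winter and C. azalea spring. The correlation of the 12 month means between the species had a median of -0.45 over the members and was negative in 53 of 60. Since 6 of those months chose the members, this is a description. Over the 6 months that did not, the median was -0.66, negative in 51 of 60, and it was not computed over all IDs. The yearly swing, the highest minus the lowest month mean, had a median of 3.29 in C. japonica (1.31 to 8.45) and of 3.52 in C. azalea (2.01 to 6.44), in log2 units.

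The members with the highest score were EVM0037437 and EVM0010016. EVM0037437 had a lowest, median and highest value of 3.72, 39.6 and 102 TPM in C. japonica winter leaves (n = 8), against 0.188, 2.87 and 28.2 TPM in summer leaves (n = 9). In C. azalea it had 6.21, 41.7 and 295 TPM in winter leaves, against 6.02, 166 and 2101 TPM in summer leaves. The seasons overlapped in both species, with Jan leaf 3 the lowest winter and Jun leaf 2 the highest summer library in C. japonica, and Jan 1 the highest winter and Aug 2 the lowest summer library in C. azalea. EVM0010016 had 0.856, 9.07 and 53.9 TPM in C. japonica winter leaves, against 0, 1.75 and 6.65 TPM in summer leaves. Its levels in C. azalea were 5.06, 19.3 and 115 TPM in winter leaves, against 11.1, 316 and 702 TPM in summer leaves, and its difference of -3.12 was the lowest among the members. The next lowest in C. azalea was EVM0015925, with 0.0737, 2.45 and 29.1 TPM in winter leaves, against 0.226, 42.9 and 89.1 TPM in summer leaves, a difference of -2.73. The highest winter values of all 3 IDs in C. azalea came from Jan 1, and the lowest summer values from Aug 2.

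The members with the greatest winter excess in C. japonica were EVM0011960 and EVM0034412. EVM0011960 had 10.5, 670.5 and 1934 TPM in C. japonica winter leaves, against 2.78, 15.8 and 94.7 TPM in summer leaves, a difference of 3.95. Its low winter value was Jan leaf 3, and its yearly swing of 8.45 log2 units in C. japonica was the widest among the members. EVM0034412 had 0.402, 26.98 and 211.5 TPM in C. japonica winter leaves, against 0, 0.915 and 5.55 TPM in summer leaves, a difference of 2.92. In C. azalea it was a low-abundance transcript, with 0.0611, 2.01 and 5.89 TPM in winter leaves, against 0.153, 3.38 and 15.2 TPM in summer leaves.

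**Figure D3:**
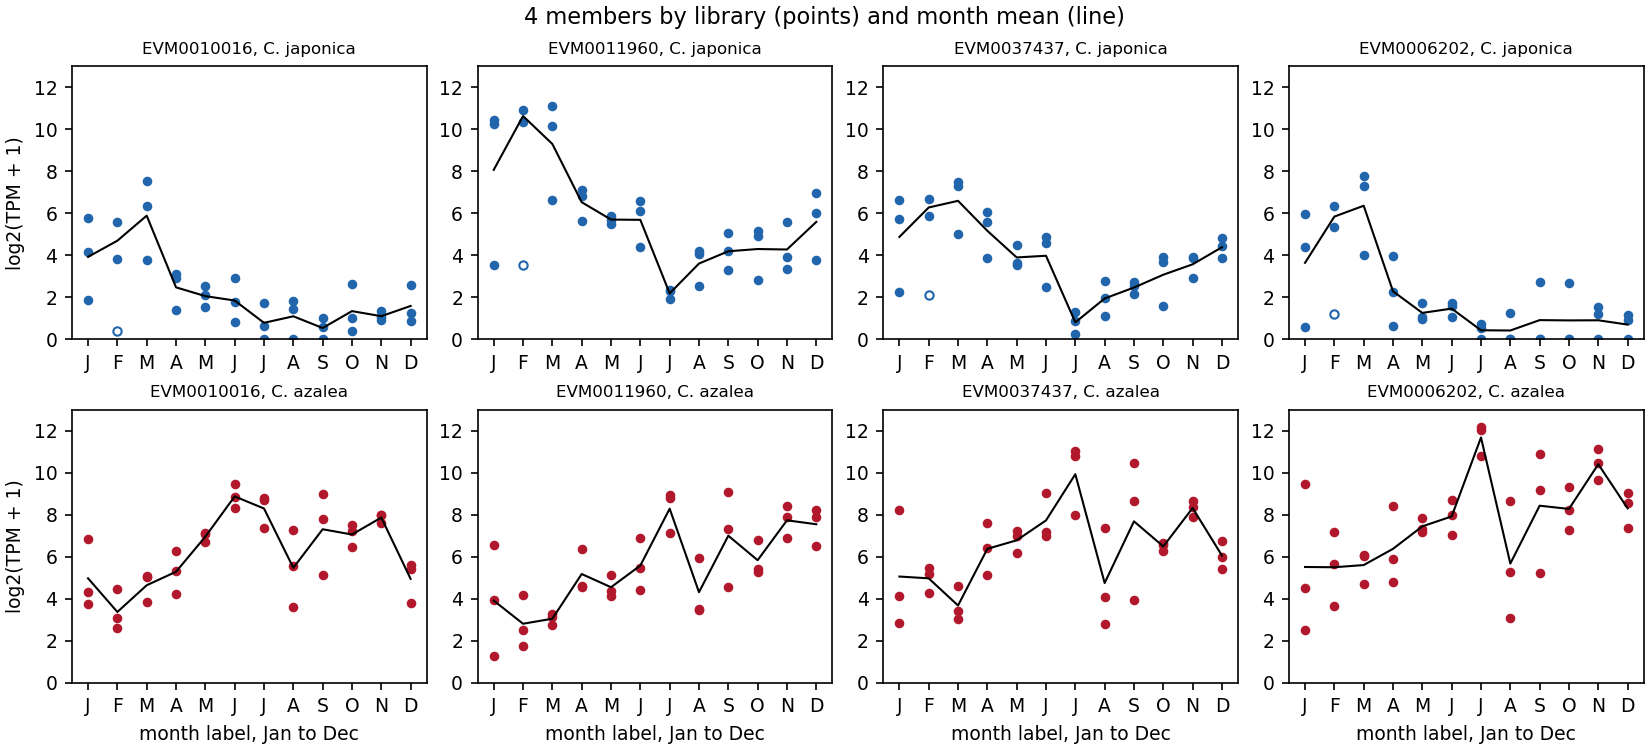
Levels of EVM0010016, EVM0011960, EVM0037437 and EVM0006202 as log2(TPM + 1) in each leaf library (points) and month mean (line) from January to December, in C. japonica (top) and C. azalea (bottom); the open circle is the library labelled Feb leaf 1, left out of the means. The C. japonica maxima lie in February or March, and the C. azalea values dip in August between high values in June or July and from September to November.

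Spring (Mar, Apr, May) and autumn (Sep, Oct, Nov) leaves were not used to choose the members, so these seasons were tested with limma across all expressed IDs. In C. japonica 31 of the 60 members were higher in spring than in autumn, 0 were lower and 29 did not pass (adjusted p below 0.05 and a difference of at least 1 log2 unit). At an unadjusted p below 0.05, 39 members were higher and 1 was lower, against 18.5% and 15.8% of all IDs. The lower one was EVM0041156, named after its values were seen, at -0.95 ± 0.28 (limma adjusted p = 0.0307), under the size required; it was called lower without Apr 1, Sep 1 or Oct 1, at -1.05, -1.18 and -1.01. Of all 27499 IDs tested, 5.13% were higher and 2.75% lower. The IDs tested, here and below, include ones under the 5 TPM asked of members. Shares and medians over all IDs are therefore not matched to the members for level. The median difference was 1.13 over the members and -0.00 over all IDs, and 55 of 60 members were positive, against 49.8% of all IDs. The most negative was EVM0007018, also named after its values were seen, at -1.42, which did not reach an unadjusted p below 0.05. The library medians of the members were 16.9, 24.03 and 37.8 TPM (lowest, middle, highest) in spring, against 6.52, 9.13 and 22.3 TPM in autumn. Those ranges overlapped, and each spring library stood above each autumn library for 6 members, against 1.02% of all IDs. The highest autumn value was that of Oct leaf 1, which was closest to a March library. Without it 35 members were higher and 1 lower, against 1587 and 978 of 27406 IDs.

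The greatest spring excess in C. japonica was that of EVM0015371. It had a lowest, median and highest value of 42.5, 242 and 712 TPM in spring leaves, against 0.451, 20.9 and 37.4 TPM in autumn leaves, with no overlap. The difference was 4.40 ± 0.66 (SE, n = 9 libraries each), limma adjusted p = 5.0e-04. In these fits by library, SE and p measure scatter among libraries of the same month, not among the months of a season. Its highest values lay in Apr and May rather than in winter, and the lowest spring library was May 3. EVM0026399 followed, with 7.02, 72.7 and 143 TPM in spring, against 0.311, 1.90 and 10.8 TPM in autumn, overlapping through May 3, which lay below Sep 2 and Oct 1. Its difference was 3.87 ± 0.46, limma adjusted p = 1.0e-04. In C. azalea neither ID passed the test between these seasons. Differences there were -0.46 ± 0.31 for EVM0015371 and 0.82 ± 0.27 for EVM0026399.

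In C. azalea the members leaned the other way. A total of 37 of 60 were lower in spring than in autumn, 2 were higher and 21 did not pass, while 4.09% of the 26161 IDs tested were lower and 4.41% higher. The median difference was -1.33 over the members and -0.05 over all IDs, and 54 of 60 members were negative, against 54.0% of all IDs. The library medians of the members were 4.63, 9.32 and 14.4 TPM in spring, against 11.7, 17.8 and 26.9 TPM in autumn. The lowest autumn values overlapped the highest spring values, and for 9 members each spring library stood below each autumn library (0.707% of all IDs). With month means as the unit of the test, 6 in all, 17 members were lower and 2 higher, against 1.02% and 2.25% of all IDs in that fit.

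Among the members that fell, EVM0002218 had the widest difference. It had 16.3, 62.1 and 101 TPM in C. azalea spring leaves, against 150.3, 560.3 and 683 TPM in autumn leaves, with no overlap. The difference was -2.90 ± 0.32, limma adjusted p = 1.4e-06 (n = 9 libraries each). EVM0016854 had 0.433, 2.89 and 12.5 TPM in spring, against 6.68, 18.4 and 77.6 TPM in autumn, a difference of -2.74 ± 0.25 with limma adjusted p = 1.3e-07. Its highest spring value, Apr 1, lay above the lowest autumn value, Sep 2. Both were called in the opposite direction in C. japonica, with 1.29 ± 0.44 (limma adjusted p = 0.0495) for EVM0002218, a call lost without any 1 of 15 of the 18 libraries and under 5 of 6 other settings, and 1.11 ± 0.31 (limma adjusted p = 0.0212) for EVM0016854, a call lost without either of 2 libraries.

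The 2 members that rose in C. azalea spring leaves were EVM0039797 and EVM0025289. EVM0039797 had 7.99, 26.3 and 59.6 TPM in spring, against 3.50, 7.95 and 14.4 TPM in autumn, a difference of 1.67 ± 0.26 with limma adjusted p = 8.2e-05. EVM0025289 had 6.62, 22.2 and 52.05 TPM in spring, against 3.08, 7.81 and 12.2 TPM in autumn, a difference of 1.54 ± 0.25 with limma adjusted p = 1.4e-04. The seasons overlapped in both. In C. japonica their differences had the same sign, 1.91 ± 0.94 and 1.62 ± 0.77, and did not pass the test. Over the 18 spring and autumn libraries these IDs correlated at r = 0.99 in each species. Whether they are near-identical copies that share reads was not tested, so their separate values are uncertain.

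The opposition between the species was then tested directly, by subtracting the spring minus autumn difference of C. azalea from that of C. japonica. A total of 51 of 60 members were called positive, 0 negative and 9 neither, whereas 9.2% of the 29958 IDs tested were positive and 6.92% negative. At an unadjusted p below 0.05, 53 members were positive and 0 negative, against 20.3% and 16.3% of all IDs. The median was 2.74 over the members and 0.03 over all IDs. In 19 members the difference was called upwards in C. japonica and downwards in C. azalea, against 0.802% of the 23927 IDs tested in both, and the reverse pattern occurred in 0.359% of those IDs. A further 12 members were called in C. japonica alone and 18 were called lower in C. azalea alone, which does not by itself show a difference between the species. A positive sign in C. japonica with a negative one in C. azalea was seen in 50 of 60 members, against 29.4% of all IDs. The spring and autumn months adjoin those that chose the members, and neighbouring months of a yearly curve are not independent of each other.

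**Figure D4:**
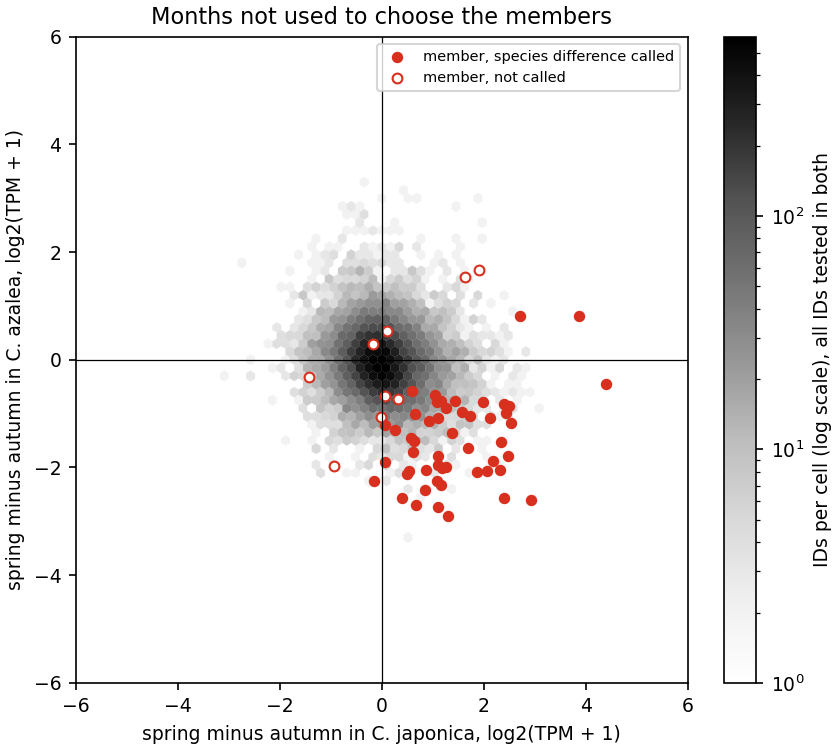
Spring minus autumn difference in log2(TPM + 1) in C. japonica (x axis) against that in C. azalea (y axis), for the 60 members (red; filled where the species difference passed the test) and all IDs tested in both species (grey cells, log colour scale). Most members lie at the lower right, where 50 of the 60 have a positive difference in C. japonica and a negative one in C. azalea.

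EVM0011960 had the widest species difference. In C. japonica it had 44.6, 98.01 and 2199.98 TPM in spring leaves, against 6.05, 17.4 and 46.7 TPM in autumn leaves, a difference of 2.92 ± 0.54. In C. azalea it had 5.78, 19.6 and 81.2 TPM in spring leaves, against 22.7, 120 and 547 TPM in autumn leaves, a difference of -2.60 ± 0.44. Spring was high in one species and low in the other, and the seasons overlapped in each. The species difference was 5.52 ± 0.73, limma adjusted p = 2.2e-06. EVM0006202 came next at 4.96 ± 0.90, limma adjusted p = 1.4e-04. It had 0.570, 3.69 and 215 TPM in C. japonica spring leaves, against 0, 0 and 5.65 TPM in autumn leaves, and the highest values were those of March. In C. azalea it had 25.3, 66.2 and 345.5 TPM in spring, against 36.9, 641.5 and 2243 TPM in autumn, and the seasons overlapped in both species. EVM0010016 and EVM0037437, the members with the highest score, had species differences of 4.26 ± 0.62 (limma adjusted p = 7.6e-06) and 4.07 ± 0.77 (limma adjusted p = 2.3e-04).

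The members also moved together within a species, as a description. Over the 18 spring and autumn libraries, the median correlation among the 1770 pairs of members was 0.39 in C. japonica, and 82.2% of pairs were positive, beside a median of 0.061 among all IDs. In C. azalea the median was 0.60 with 81.2% positive, beside 0.305 among all IDs. These correlations share the seasonal difference and the libraries, and IDs are not independent replicates.

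Flower bud libraries were not used to choose the members and were available for C. japonica alone. However, the choice required 5 TPM in C. japonica winter leaves and set no minimum in buds, so it favoured IDs expressed in leaves. The IDs tested faced no such minimum, so their shares are not matched to the members for leaf level. In buds 8 of 60 members were higher than in spring and autumn leaves, 38 were lower and 14 did not pass, while 24.2% of the 31717 IDs tested were higher and 11.2% lower (limma). The median difference was -1.42 over the members and 0.39 over all IDs. Most members were therefore lower in buds than in leaves of the same species, a direction that the choice by leaf level favours. The median over all IDs depended on scaling, at 0.03 with quantile normalization, under which 4 members were higher and 41 lower, against 15.4% and 15.7% of all IDs, and the members' median was -1.81. The library medians of the members were 2.40, 2.54 and 15.4 TPM across FB-1 libraries. They were 5.66, 6.48 and 7.53 TPM across FB-2 libraries, and 3.07, 4.01 and 7.25 TPM across FB-3 libraries, and the highest of all was FB-1 1, which correlated best with Dec leaf 2. Without it 4 members were higher and 40 lower, with a median of -1.57, against 28% and 12% of all IDs. Without FB-2 1, 5 members were higher, against 24.1% of all IDs.

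The members with the widest fall in buds were EVM0025289 and EVM0039797. EVM0025289 had a lowest, median and highest value of 0, 0.409 and 361.6 TPM over the 9 bud libraries, against 3.02, 173 and 543 TPM over the 18 leaf libraries. The highest value was FB-1 1, and the other 8 bud libraries reached at most 2.90 TPM, below each leaf library. The difference was -5.66 ± 0.80, limma adjusted p = 3.0e-06. EVM0039797 had 0, 0.635 and 375 TPM in buds, against 1.58, 217.5 and 597 TPM in leaves, a difference of -5.62 ± 0.90 with limma adjusted p = 1.4e-05. Its bud maximum was again FB-1 1, and the others reached 2.35 TPM, just above the lowest leaf library. In all, 1 member had a mean of under 1 TPM over the 9 bud libraries, and 9 did without FB-1 1.

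The 8 members that were higher in buds shared a leaf pattern. All 8 had their highest C. japonica leaf month in Feb or Mar, against 16 of the 38 that were lower in buds and 33 of all 60 members, a description without a test. The Feb level and the score both entered the choice of members, so neither is independent of it. Fewer members were called higher without FB-1 1 or without FB-2 1, as given above, so the group of 8 was not stable. Of these 8, 7 were among the 15 members with the highest score. Their median level was 5.25 TPM for FB-1, 72.5 TPM for FB-2 and 41.2 TPM for FB-3, whereas the 38 that were lower in buds had medians of 8.10, 3.94 and 1.98 TPM in the same order of labels. Without FB-1 1 the FB-1 medians were 0.819 TPM for the 8 and 2.19 TPM for the 38, so the 38 were still higher there. That value of the 38 lay below their FB-2 median, so their fall from FB-1 to FB-2 was seen only with FB-1 1. EVM0034412 rose the most. It had 27.4, 0.605 and 0.809 TPM in the 3 FB-1 libraries, 437, 120 and 41.1 TPM in the FB-2 libraries, and 1927, 1964 and 4942 TPM in the FB-3 libraries. In spring and autumn leaves its lowest, median and highest values were 0.125, 1.24 and 133 TPM. FB-3 lay far above each leaf library, and FB-1 lay within the leaf range. The difference between buds and leaves was 4.74 ± 0.49, limma adjusted p = 4.6e-08. EVM0014150 had 0.526, 26.4 and 369.5 TPM in buds (lowest, median, highest), against 0, 1.45 and 61.7 TPM in leaves, a difference of 2.58 ± 0.43 with limma adjusted p = 2.3e-05.

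**Figure D5:**
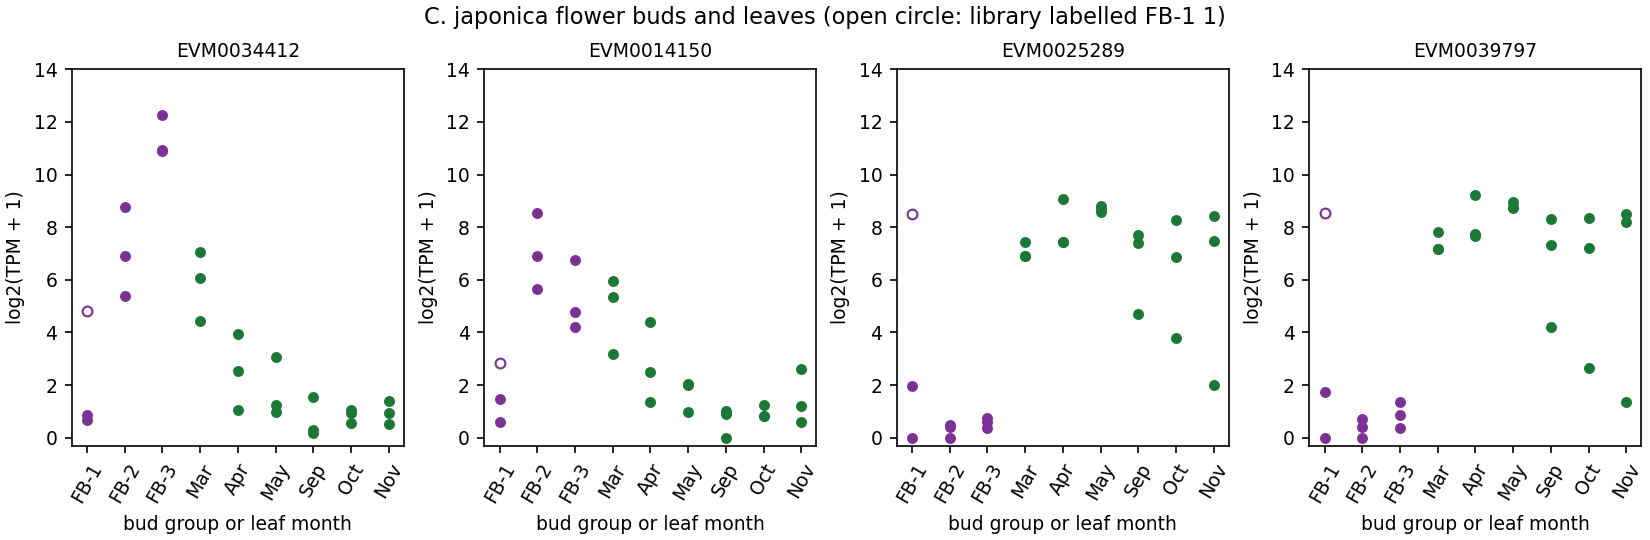
Levels as log2(TPM + 1) of EVM0034412, EVM0014150, EVM0025289 and EVM0039797 in each C. japonica bud library (purple) and each spring and autumn leaf library (green); the open circle is the library labelled FB-1 1. EVM0034412 lies above all leaf libraries in FB-3, while EVM0025289 and EVM0039797 stay near 0 in the bud libraries other than FB-1 1 and are mostly high in leaves.

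Between the bud labels few members differed, with 54 of the 60 expressed in enough bud libraries to be tested. Between FB-3 and FB-1, 3 members were higher and 0 lower (1.39% and 0.626% of 29394 IDs by limma), and at an unadjusted p below 0.05, 11 were higher and 5 lower, against 10.3% and 9.2% of IDs. EVM0034412 was higher in FB-3 than in FB-1 by 9.25 ± 1.20 log2 units (n = 3 each, limma adjusted p = 0.0103), with no overlap of the values above. EVM0011960 had 420.3, 606 and 781 TPM in FB-3, against 7.04, 9.80 and 89.4 TPM in FB-1, a difference of 4.88 ± 0.84 (limma adjusted p = 0.0296). The third was EVM0037437, named after its values were seen, with 72.7, 82.1 and 300.0 TPM in FB-3, against 4.31, 5.83 and 15.5 TPM in FB-1, a difference of 3.86 ± 0.61 (limma adjusted p = 0.0234). The highest FB-1 value of all 3 IDs came from FB-1 1. Between FB-2 and FB-1, EVM0014150 was the 1 member called higher and 0 were lower (0.609% and 0.0136% of IDs by limma), and at an unadjusted p below 0.05, 9 were higher and 1 lower, against 5.22% and 1.99% of IDs. EVM0014150 had 48.8, 120 and 369.5 TPM in FB-2, against 0.526, 1.81 and 6.18 TPM in FB-1, a difference of 5.38 ± 0.92 with limma adjusted p = 0.04999. Between FB-3 and FB-2, 0 members were called by limma (0% of IDs), and 6 of the 54 members had an unadjusted p below 0.05, near the 10.2% of all IDs. The smallest p there was that of EVM0034412, at 4.34 ± 1.20 and a limma adjusted p of 0.342, which did not pass.

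These bud counts depended on single libraries. Without FB-1 1, 51 members could be tested, and the calls over all IDs rose as well. Between FB-3 and FB-1, 12 members were then higher and 2 lower, 14 in all, against 4.79% and 9.98% of all IDs. Between FB-2 and FB-1, 4 were higher and 0 lower, against 0.947% and 0.765%. Between FB-3 and FB-2, 1 was higher and 1 lower, against 0.333% and 0.971%. Between FB-3 and FB-1 0 were called without FB-3 1 or FB-3 3, and 1 was called without FB-1 2, FB-1 3 or FB-2 1, in fits where 0.34% to 0.716% of all IDs were higher. Between FB-3 and FB-1 the call was lost without any 1 of 7 of the 9 bud libraries for EVM0011960, of 5 for EVM0037437 and of 2 for EVM0034412, while their differences stayed at 4.23 to 5.97, 3.22 to 4.35 and 8.53 to 10.6. The call of EVM0014150 between FB-2 and FB-1 was lost without any 1 of 7 of the 9 bud libraries, all but FB-1 1 and FB-3 2, and under each of the 4 other ways of scaling or filtering.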

How the data were processed

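The authors deposited TPM values in 1 table per species, each listing 41982 gene IDs. Per the submitters' processing notes, HISAT2 2.1.0 and StringTie 1.3.6 were used. Neither their settings nor a genome build or annotation was given in the sources used here. TPM keep no depth, so no counting interval is given, and they are shares of a fixed total, so a rise in a few abundant genes lowers the rest. Columns were tied to libraries through the sample titles, and 0 columns of per-sample values went unused. Replicate numbers come from the labels in C. azalea and from the order of deposit in C. japonica, where they only name a library.

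The members, and the lists and tests, were chosen with earlier results of these data known. Tests were two-sided, on log2(TPM + 1), with limma 3.58.1 under R 4.3.3 and a mean-variance trend. An ID entered a fit if 3 or more of its libraries reached 1 TPM, and Benjamini-Hochberg adjustment covered every ID tested. Month (or bud label) means were fitted and seasons contrasted as means of month means. Calls needed an adjusted p under 0.05 and a log2 difference of 1 or more in size. Differences on this scale understate the change of low values. The procedure was tested on simulated data. Winter against summer was not tested, since it chose the members.

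As the IDs carry no names, at most 2 members up and 2 down are named per comparison: the called members whose difference was largest and whose higher group averaged 5 TPM or more, and, of the values that chose the members, the 2 highest by score and by each difference. Alternatives were a pseudocount of 0.1, no low-value filter, median-of-ratios and quantile scaling, month means as the unit, other TPM minimums and each library left out. In C. azalea, libraries with the same number did not deviate together, so no replicate block was used. Seasons as means of month means in the choice of members, and leaving out Jan leaf 3 and Jan 1, were added after seeing the data.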

Additional observations from a re-analysis of the deposited data

Results flagged for a closer look

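A library far from the rest of its group was found in 3 of the 53 groups of member values that were checked, and chance alone sets apart about 1 in 20 groups. In C. azalea spring leaves, EVM0002218 was lowest in Mar 2, at 16.3 TPM or 4.11 on the log2(TPM + 1) scale, with the other spring libraries between 44.98 and 101 TPM. In C. japonica buds, EVM0025289 was highest in FB-1 1, at 361.6 TPM or 8.50 on the log2 scale, and EVM0039797 was also highest there, at 375 TPM or 8.56. FB-1 1 correlated best with Dec leaf 2, and the other 8 bud libraries reached at most 2.90 TPM for EVM0025289 and 2.35 TPM for EVM0039797.

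The spring minus autumn difference differed between C. japonica and C. azalea for 51 members by limma's test of the difference itself. The widest among them were EVM0011960 at 5.52 and EVM0006202 at 4.96 log2 units.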

How the results depend on the processing

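No difference of a named member that was refitted changed direction under any alternative run; the values of some were refitted after seeing the data. Rebuilding the set of 60 kept 36 members under median-of-ratios scaling, 37 under quantile normalization and 38 with a minimum mean of 10 TPM; it kept 44 with Feb leaf 1 included, 48 with a pseudocount of 0.1, 48 with a minimum of 1 TPM and 51 without both odd Jan libraries, the last chosen after seeing the data. Leaving out 1 library kept 46 to 58. Between C. azalea spring and autumn leaves, 19 members were called with month means as the unit, against 39. Leaving out 1 library gave 34 to 44 calls there, 23 to 36 in C. japonica and 47 to 52 for the species difference. With month means as the unit, C. japonica had 21 members higher and 1, EVM0007018, lower, against 1233 and 694 of 27499 IDs. The species difference then had 36 members higher and 0 lower, against 1359 and 1195 of 29958 IDs. Between FB-2 and FB-1, 0 members were called, against 1, with a pseudocount of 0.1, no low-value filter, median-of-ratios scaling or quantile normalization. Leaving out 1 library gave 0 to 4 calls there, 0 to 14 between FB-3 and FB-1 and 0 to 2 between FB-3 and FB-2. The adjusted p by limma of EVM0011960 between FB-3 and FB-1 reached 0.113, that of EVM0037437 0.0775 and that of EVM0034412 0.053 with 1 library left out, above the threshold in 7, 5 and 2 of 9 such fits. In C. japonica that of EVM0002218 between spring and autumn reached 0.0979, and with month means as the unit the call of EVM0011960 was lost. The cause of these changes was not tested. The replicate block in C. azalea gave 38 calls, against 2229 of 26161 IDs. The 45 same-numbered pairs had a median r of 0.00 (-0.51 to 0.52), so no shared deviation was seen. This cannot tell whether a number marks the same plant. No paired analysis was possible for the other comparisons because C. japonica columns carry no replicate number. Median-of-ratios scaling moved the median of all IDs between buds and leaves to 0.21. In that fit 6 members were higher and 38 lower, against 6209 and 4053 of 31717 IDs. Quantile normalization moved that median to 0.03. Depth is unknown.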

Other observations

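A member named for its fall in C. azalea spring leaves, EVM0002218, was among the most abundant in C. japonica winter leaves, with a lowest, median and highest value of 21.5, 788 and 1077 TPM, against 26.6, 99.96 and 286 TPM in summer leaves. Jan leaf 3 gave the low winter value. These seasons chose the members, so the values are a description.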
